A study of Mus musculus with 17 samples.

Results

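The HoxB cluster is the run of 10 homeobox genes on mouse chromosome 11 from Hoxb13 to Hoxb1, and its members were taken by symbol from the deposited gene count tables: 10 of 52850 gene symbols. The genes were listed by symbol, and the cluster was selected on differences in its measured counts between the 4 groups below, so the levels of the members are given as a description, without a test. Bulk RNA was sequenced in 12 libraries. The 3 YMdIDR libraries carry conflicting labels, tumour tissue of the brain in one field and ES-derived neural progenitors (from embryonic stem cells) in another, with YAP-MΔIDR overexpressed. YAP-MΔIDR is, by its name, YAP-M without an intrinsically disordered region. The labels alone do not settle whether tissue or cells were sampled, and levels of cell type markers are given below. The 4 YAP-M libraries are labelled as tumours of the brain after DNA for YAP-M was electroporated in utero, by the series title a fusion protein of the transcriptional coactivator YAP. The 2 NSC-YAP libraries are labelled as ES-derived neural progenitors in which YAP is overexpressed. The 3 SVZ libraries carry the treatment label wild type and also the label brain tumour, while the extraction protocol names normal brain. The labels give no promoter, strain, sex or age, and nothing says that the libraries of a group came from separate animals or cultures, so their spread may be technical. It was larger than counting error. For pairs of libraries of a group, the chi-square of the counts per gene ran from 3.9 in NSC-YAP to 76.1 within YMdIDR.

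HOX genes encode transcription factors that tell cells of the embryo where they lie along the head to tail axis. The genes of a cluster are switched on in the order in which they sit on the chromosome, from Hoxb1 at the anterior end to Hoxb13 at the posterior end, and the same order holds for how far forward each is expressed. In the brain the anterior members mark the hindbrain and the posterior ones the spinal cord. The forebrain, where supratentorial tumours arise, normally keeps all HOX clusters silent under Polycomb repression. Several members are also used in blood cell progenitors.

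On the mm10 build the 10 members lie on the plus strand of chromosome 11 over 173.9 kb, from base 96194316 to base 96368256. Hoxb13 (ENSMUSG00000049604, chr11:96194316-96197447) stands 74.0 kb away from Hoxb9 (ENSMUSG00000020875, chr11:96271457-96276595). Hoxb8 (ENSMUSG00000056648, chr11:96281905-96285315), Hoxb7 (ENSMUSG00000038721, chr11:96286623-96290162) and Hoxb6 (ENSMUSG00000000690, chr11:96292476-96301569) follow closely. Hoxb5 (ENSMUSG00000038700, chr11:96303336-96306121), Hoxb4 (ENSMUSG00000038692, chr11:96318267-96321638) and Hoxb3 (ENSMUSG00000048763, chr11:96323326-96347930) come next. Hoxb2 (ENSMUSG00000075588, chr11:96350525-96354012) and Hoxb1 (ENSMUSG00000018973, chr11:96365752-96368256) end the cluster. On the minus strand, Hoxb5os overlaps Hoxb6 and Hoxb5, and Hoxb3os overlaps Hoxb3 and Hoxb2. Whether the counting used strand is not given in the sources used here, so reads of these genes and of their antisense partners cannot be told apart.

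Between the members lie 2 miRNA hairpins, Mir196a-1 upstream of Hoxb9 and Mir10a between Hoxb5 and Hoxb4. Their mature 5p arms are shown because both belong to the cluster's transcription units and are known to target HOX mRNAs. The sequences are from RefSeq on GRCm38.p6, written 5′ to 3′, with the seed, bases 2 to 8, in capitals. The 2 seeds differ.
mmu-miR-196a-5p: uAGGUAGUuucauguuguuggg
mmu-miR-10a-5p: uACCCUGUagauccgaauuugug

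Promoter sequence from RefSeq on GRCm38.p6 was at hand for 3 of the 10 members, Hoxb8, Hoxb4 and Hoxb1. They are shown because Hoxb8 and Hoxb4 were among the members with the higher levels and Hoxb1 was close to undetected in all 12 libraries. Each stretch is 230 bases long, from 250 bases before the gene start recorded by RefSeq, on the plus strand, written 5′ to 3′. Capitals mark matches, on either strand, to 4 motifs: GGAATG, the TEAD motif through which YAP is brought to DNA, AGGTCA, the core of retinoic acid receptor sites, TGATNNAT, a PBX-HOX motif, and TTTATG, a CDX motif. No match of one motif overlapped a match of another.
Hoxb8 (chr11:96281655-96281884): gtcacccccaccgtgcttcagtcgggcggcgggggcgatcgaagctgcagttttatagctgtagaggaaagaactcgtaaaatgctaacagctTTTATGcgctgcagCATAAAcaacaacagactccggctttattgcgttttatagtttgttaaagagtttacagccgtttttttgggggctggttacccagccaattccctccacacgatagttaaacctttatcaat
Hoxb4 (chr11:96318017-96318246): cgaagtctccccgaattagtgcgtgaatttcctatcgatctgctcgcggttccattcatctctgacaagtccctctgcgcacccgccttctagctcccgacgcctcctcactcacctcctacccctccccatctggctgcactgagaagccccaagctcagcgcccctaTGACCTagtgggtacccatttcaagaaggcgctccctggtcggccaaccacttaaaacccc
Hoxb1 (chr11:96365508-96365737): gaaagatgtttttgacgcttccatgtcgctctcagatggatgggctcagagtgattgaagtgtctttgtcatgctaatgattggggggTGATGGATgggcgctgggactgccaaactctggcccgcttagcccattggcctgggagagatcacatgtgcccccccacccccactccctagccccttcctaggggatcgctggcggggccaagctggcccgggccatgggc
The Hoxb8 stretch held TTTATG at bases 94 to 99 and its reverse complement CATAAA at bases 108 to 113, counted from the first base shown. Hoxb4 held TGACCT, the reverse complement of AGGTCA, at bases 170 to 175, and Hoxb1 held TGATNNAT at bases 89 to 96. GGAATG was in none of the 3 stretches, and among all 32851 promoter windows of the same length it was in 11.8%. The other motifs were in 13% (AGGTCA), 7.3% (TGATNNAT) and 10.2% (TTTATG) of those windows. The stretches held 12, 13 and 7 CpG dinucleotides in Hoxb8, Hoxb4 and Hoxb1, with a median of 5 over all windows.

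The libraries held between 20784130 and 25463303 counts each, and levels are given in CPM, counts divided by the library total after edgeR's TMM correction for composition. A count of 0 allows up to 3 counts, or 0.110 to 0.147 CPM per library, counting error only. Yap1, the gene behind the constructs, was at 184, 838 and 1274 CPM in the YMdIDR libraries, 92.7 to 104.9 CPM in the YAP-M libraries, 241 and 238 CPM in the NSC-YAP libraries and 21.5 to 27.9 CPM in the SVZ libraries. The summed level of 7 neuronal markers was 3906 to 4055 CPM in the SVZ libraries, against at most 821.5 CPM in the others. Mitochondrial genes took 5.55 to 6.03% of the counts in YMdIDR, 4.91 to 6.50% in YAP-M, 6.97 to 7.05% in NSC-YAP, with the highest range, 12.7 to 17.0%, in SVZ libraries. Whether the difference in mitochondrial share has a part in any result below was not tested.

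HoxB transcripts were found in the YMdIDR and YAP-M libraries and were at or near 0 in the NSC-YAP and SVZ libraries. The members summed to 118, 178 and 77.9 CPM in the YMdIDR libraries and to 16.3, 26.01, 18.9 and 27.6 CPM in the YAP-M libraries. In the NSC-YAP libraries not one count fell on any of the 10 genes. The 3 SVZ libraries held 4 counts in all, 1 in replicate 1 and 3 in replicate 3. The ranges of the YMdIDR and YAP-M sums did not overlap, and the lowest YAP-M sum was far above the 0.147 CPM of the highest SVZ library. In bulk RNA, fewer cells that carry a transcript and less of it per cell cannot be told apart.

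**Figure D1:**
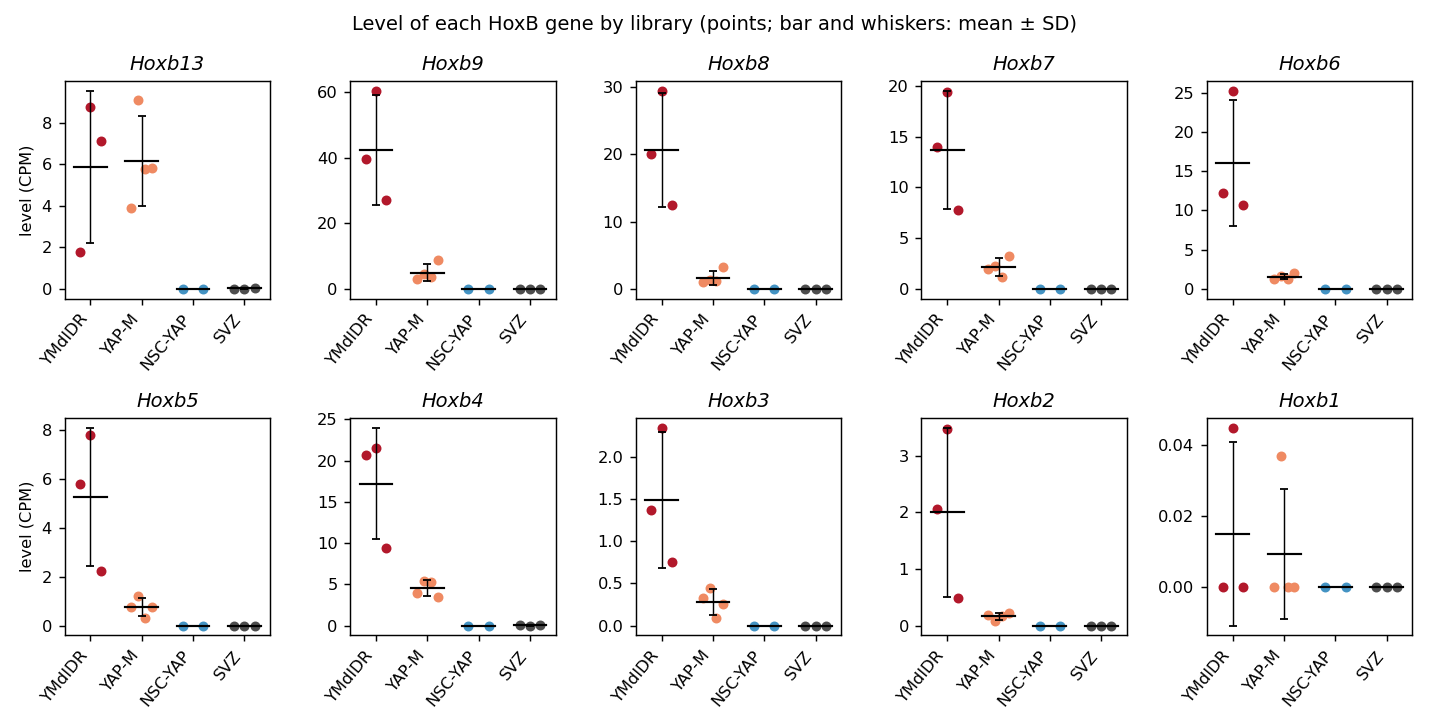
Level of each HoxB gene (CPM, linear axes that differ between panels) in every library, with the mean and SD of each group as bar and whiskers. The YMdIDR points lie above all YAP-M points in 8 panels, mix with them for Hoxb13 and, at 1 count in each group, for Hoxb1, and the NSC-YAP and SVZ points sit on or beside 0 throughout.

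Hoxb13, the most posterior member and a factor of the tail region and the prostate, was the one expressed member that did not separate YMdIDR from YAP-M. It had 1.75, 8.74 and 7.11 CPM in the YMdIDR libraries, against 3.90, 9.08, 5.76 and 5.83 CPM in the YAP-M libraries. The ranges overlapped, and YMdIDR replicate 1 held the lowest value of the 7. The log2 fold change of YMdIDR over YAP-M was -0.07 ± 0.49 (SE, from the edgeR fit of all 12 libraries), and it turned to 0.37 without YMdIDR replicate 1 and to 0.14 without YAP-M replicate 2. SVZ held a single count of Hoxb13, in replicate 3.

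Hoxb9, which helps to shape the thoracic skeleton, was the member with the highest level per length in YMdIDR. It had 39.8, 60.5 and 27.2 CPM in the YMdIDR libraries, against 2.98, 4.56, 3.63 and 8.68 CPM in the YAP-M libraries. All YMdIDR values were above all YAP-M values, and YAP-M replicate 4 was the highest of its group. The log2 fold change was 3.09 ± 0.41, which is 8.54-fold.

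Hoxb8, a regulator of blood cell progenitors and of spinal cord development, had 20.0, 29.4 and 12.4 CPM in the YMdIDR libraries, against 0.993, 1.30, 1.11 and 3.23 CPM in the YAP-M libraries. The groups did not overlap, and YAP-M replicate 4 again stood above the other 3. Its log2 fold change was 3.63 ± 0.48, or 12.4-fold, and the fold ran from 9.53 without YMdIDR replicate 2 to 17.9 without YAP-M replicate 4. Hoxb7, a posterior member of the trunk, had 13.9, 19.4 and 7.73 CPM in the YMdIDR libraries, against 1.95, 2.22, 1.19 and 3.23 CPM in the YAP-M libraries. The ranges stood apart, with a log2 fold change of 2.66 ± 0.40. Hoxb6, which is active in the trunk and limb buds, had 12.2, 25.2 and 10.6 CPM in the YMdIDR libraries, against 1.25, 1.63, 1.28 and 1.97 CPM in the YAP-M libraries. Its YAP-M values were close to one another, its YMdIDR values all higher, and its log2 fold change was 3.38 ± 0.35.

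Hoxb5, known from enteric nerve precursors and blood stem cells, had 5.77, 7.79 and 2.21 CPM in the YMdIDR libraries, against 0.773, 1.22, 0.299 and 0.742 CPM in the YAP-M libraries. The groups did not overlap, and the log2 fold change was 2.77 ± 0.53. Hoxb4, which expands blood stem cells when overexpressed and marks the caudal hindbrain, had 20.7, 21.5 and 9.41 CPM in the YMdIDR libraries, against 3.94, 5.45, 5.33 and 3.45 CPM in the YAP-M libraries. Its log2 fold change, 1.92 ± 0.33, was the lowest value among the 8 members from Hoxb9 to Hoxb2. Hoxb4 also held 3 of the 4 SVZ counts, 1 in replicate 1 and 2 in replicate 3.

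The anterior members were low in every library. Hoxb3, a hindbrain gene, had 1.37, 2.34 and 0.751 CPM in the YMdIDR libraries, against 0.331, 0.445, 0.0853 and 0.260 CPM in the YAP-M libraries. Hoxb2, which acts in the hindbrain segment of the facial motor neurons, had 2.05, 3.47 and 0.486 CPM in the YMdIDR libraries, against 0.184, 0.0741, 0.171 and 0.223 CPM in the YAP-M libraries. Neither gene overlapped between the 2 groups, with log2 fold changes of 2.37 ± 0.55 for Hoxb3 and 3.58 ± 0.68 for Hoxb2. The YAP-M values of Hoxb2 rest on 17 counts in all, and those of Hoxb3 on 30. Hoxb1, which sets the identity of the same hindbrain segment, had 1 count in YMdIDR replicate 2, 1 count in YAP-M replicate 2 and 0 counts in the other 10 libraries, so no difference was detectable at this depth.

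Of the 10 members, 9 passed the filter of at least 1 CPM in at least 2 libraries, and Hoxb1 did not. All 9 passed only through YMdIDR or YAP-M libraries, as no NSC-YAP or SVZ library came near that level for any member. Among them, Hoxb5, Hoxb3 and Hoxb2 passed only through the YMdIDR libraries, Hoxb5 with 1 YAP-M library also above that level. A gene was called with edgeR's quasi-likelihood test where the Benjamini-Hochberg adjusted p was under 0.05 and the log2 fold change at least 1 in size. Of YMdIDR over YAP-M, 8 of the 9 tested members were called higher and 8 lay fully above, where 6.78% of all 18329 tested genes were called higher and 22.5% lay fully above. The median log2 fold change was 2.77 over the tested members, against -0.01 over all tested genes. Because the members were picked with this contrast known, nothing is read from that count. Without YMdIDR replicate 1 or without YMdIDR replicate 2, Hoxb3 and Hoxb2 no longer passed the filter and 6 members were called. Where they could be fitted, the folds of the called members moved by less than 1.5 times when 1 of the YMdIDR or YAP-M libraries was left out.

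**Figure D2:**
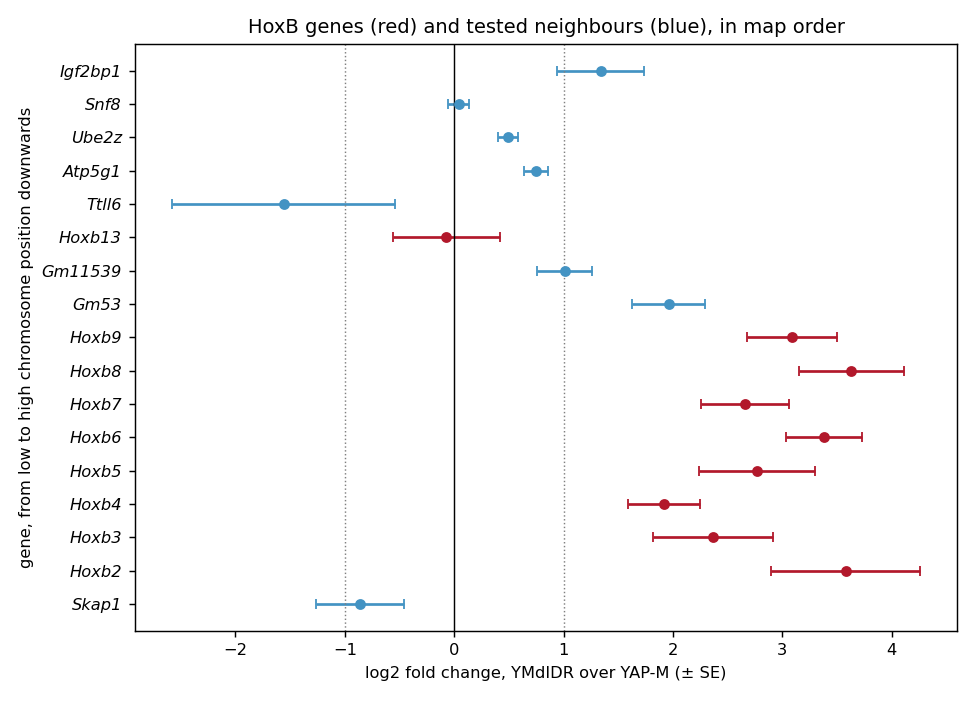
Log2 fold change of YMdIDR over YAP-M with its SE, for the HoxB genes (red) and the other tested genes within 250 kb of the cluster (blue), ordered from low to high position on the chromosome, with dotted lines at a log2 change of 1 in either direction. Hoxb9 to Hoxb2 lie between 1.92 and 3.63, Hoxb13 at -0.07, and Calcoco2, which had 2 counts in YMdIDR, is not drawn.

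Against the SVZ libraries, where the 10 genes held 4 counts, all 9 tested members were called higher in YMdIDR (26.9% of all genes) and all 9 in YAP-M (25.8%). The 9 also lay fully above SVZ in both, as did 39.5% of all genes in YMdIDR and 38.4% in YAP-M. The 9 had passed the filter only through the YMdIDR and YAP-M libraries, where they were high, so nothing is read from these numbers of members. Folds against a group with 0 counts are lower bounds, taken against 3 counts over the group. Hoxb9 was at least 908-fold higher in YMdIDR and at least 107-fold higher in YAP-M than in SVZ. Bounds for Hoxb8 were at least 441-fold in YMdIDR and 35.9-fold in YAP-M. At the other end, Hoxb2 was at least 42.8-fold higher in YMdIDR and at least 3.49-fold higher in YAP-M. For Hoxb13, with 1 SVZ count, the ratio was 374 (95% exact counting interval 66.7 to 14800) in YMdIDR and 396 (70.8 to 15670) in YAP-M. For Hoxb4, with 3 SVZ counts, it was 370 (126 to 1797) in YMdIDR and 96.9 (33.0 to 472) in YAP-M. With fewer SVZ libraries a bound falls by construction: without SVZ replicate 2 that of Hoxb9 was 595-fold in YMdIDR and 70.3-fold in YAP-M, and that of Hoxb2 in YAP-M was 2.29-fold. Without SVZ replicate 1 that of Hoxb2 was 28.4-fold in YMdIDR and 2.31-fold in YAP-M, and without YMdIDR replicate 2 it was 27.5-fold in YMdIDR. The Hoxb13 ratios were 248 in YMdIDR and 263 in YAP-M without SVZ replicate 1, and 245 in YMdIDR and 259 in YAP-M without SVZ replicate 2. The Hoxb4 ratios were 242 in YMdIDR and 63.5 in YAP-M without SVZ replicate 2. Without SVZ replicate 3 the Hoxb13 values became bounds of 85.0-fold in YMdIDR and 90.1-fold in YAP-M, and the Hoxb4 ratios came to 758 in YMdIDR and 198 in YAP-M. The call of Hoxb2 in YAP-M over SVZ was lost without YAP-M replicate 4, without SVZ replicate 1 and without SVZ replicate 2.

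Against the NSC-YAP libraries, all 9 tested members were called higher in YMdIDR (27.4% of all genes) and all 9 in YAP-M (28.9%). They lay fully above NSC-YAP as well, as did 41.7% of all genes in YMdIDR and 42% in YAP-M. Here too the members had passed the filter only through the YMdIDR and YAP-M libraries, and nothing is read from these numbers of members. The bounds ran from at least 24.2-fold for Hoxb3 to at least 692-fold for Hoxb9 in YMdIDR, and from at least 2.66-fold for Hoxb2 to at least 100.6-fold for Hoxb13 in YAP-M. They rest on 2 libraries at 0, and without NSC-YAP replicate 1 the bound was 346-fold for Hoxb9 in YMdIDR and 1.33-fold for Hoxb2 in YAP-M, with like values without NSC-YAP replicate 2. Without YMdIDR replicate 2 the bound of Hoxb2 in YMdIDR was 21.0-fold. Hoxb2 also lost its call in YAP-M over NSC-YAP without YAP-M replicate 1, 3 or 4 and without either NSC-YAP library. Between NSC-YAP and SVZ, 0 of the 9 members were called by edgeR, 0 had an unadjusted p under 0.05 and 0 were called by DESeq2, where 17.5% of all genes were called higher and 27.6% lower. The members held 0 counts in NSC-YAP and 4 in SVZ, too few for any member to be called. Nothing is therefore read from the missing calls. The comparisons with NSC-YAP and with SVZ share libraries and are not independent.

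Levels of different members were compared per kb of the gene length given in the tables. In YMdIDR, Hoxb9 led with 16.5 ± 6.53 CPM per kb (SD, n = 3), followed by Hoxb7 with 8.86 ± 3.77, Hoxb6 with 8.16 ± 4.07, Hoxb8 with 7.82 ± 3.23 and Hoxb4 with 6.71 ± 2.64 CPM per kb. The last 4 differ by less than their SDs. Hoxb13 with 2.66 ± 1.66 and Hoxb5 with 1.89 ± 1.02 CPM per kb came lower, and Hoxb2 with 0.574 ± 0.428 and Hoxb3 with 0.350 ± 0.189 CPM per kb lower still. In YAP-M the order began with Hoxb13, at 2.78 ± 0.975 CPM per kb (SD, n = 4), then Hoxb9 at 1.93 ± 0.996, Hoxb4 at 1.77 ± 0.389 and Hoxb7 at 1.39 ± 0.545 CPM per kb. Each of these 4 differs from the next by less than the larger of the 2 SDs. Hoxb6 at 0.780 ± 0.172, Hoxb8 at 0.629 ± 0.400 and Hoxb5 at 0.272 ± 0.136 CPM per kb followed. Hoxb3 at 0.0659 ± 0.0354 and Hoxb2 at 0.0467 ± 0.0181 CPM per kb were the lowest expressed.

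**Figure D3:**
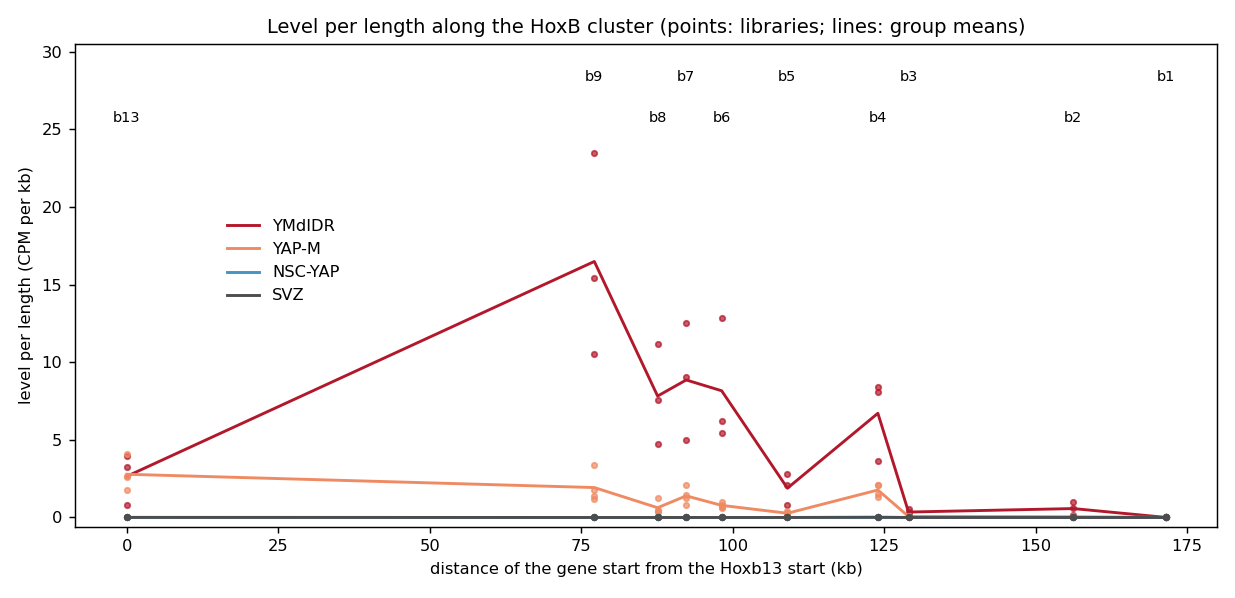
Level per length (CPM per kb) of each HoxB gene against the distance of its start from that of Hoxb13 (kb), with a point per library and a line through the group means. The YMdIDR line peaks at Hoxb9 with 16.5 CPM per kb and dips at Hoxb5, the YAP-M line starts at 2.78 CPM per kb at Hoxb13, both fall to near 0 from Hoxb3 on, and the NSC-YAP line lies under the SVZ line at 0.

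The make-up of the cluster's transcripts was taken as each member's share of the summed CPM per kb. Hoxb13 made up 1.58, 5.16 and 9.57% of the summed CPM per kb in the YMdIDR libraries, against 24.7, 36.3, 32.2 and 21.9% in the YAP-M libraries. All YAP-M shares were higher than all YMdIDR shares. Hoxb9 made up 30.8, 30.6 and 31.3% in the YMdIDR libraries, against 16.2, 15.6, 17.4 and 28.0% in the YAP-M libraries. Its share hardly varied within YMdIDR, although the cluster's summed level ranged from 77.9 to 178 CPM there. Hoxb8 took 14.6 ± 0.580% in YMdIDR and 6.24 ± 2.64% in YAP-M, and Hoxb6 took 15.1 ± 2.33% in YMdIDR and 8.14 ± 0.664% in YAP-M (SD, n = 3 and 4). The shares of Hoxb7, 16.4 ± 1.57% in YMdIDR and 14.3 ± 3.91% in YAP-M, and of Hoxb5, 3.38 ± 0.919% in YMdIDR and 2.82 ± 1.27% in YAP-M, overlapped. Hoxb4 took 12.6 ± 3.01% in YMdIDR and 19.2 ± 6.09% in YAP-M, again with overlap. YAP-M replicate 4 was the YAP-M library nearest to YMdIDR, with the highest shares of Hoxb9 and Hoxb8 and the lowest share of Hoxb13 in its group.

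**Figure D4:**
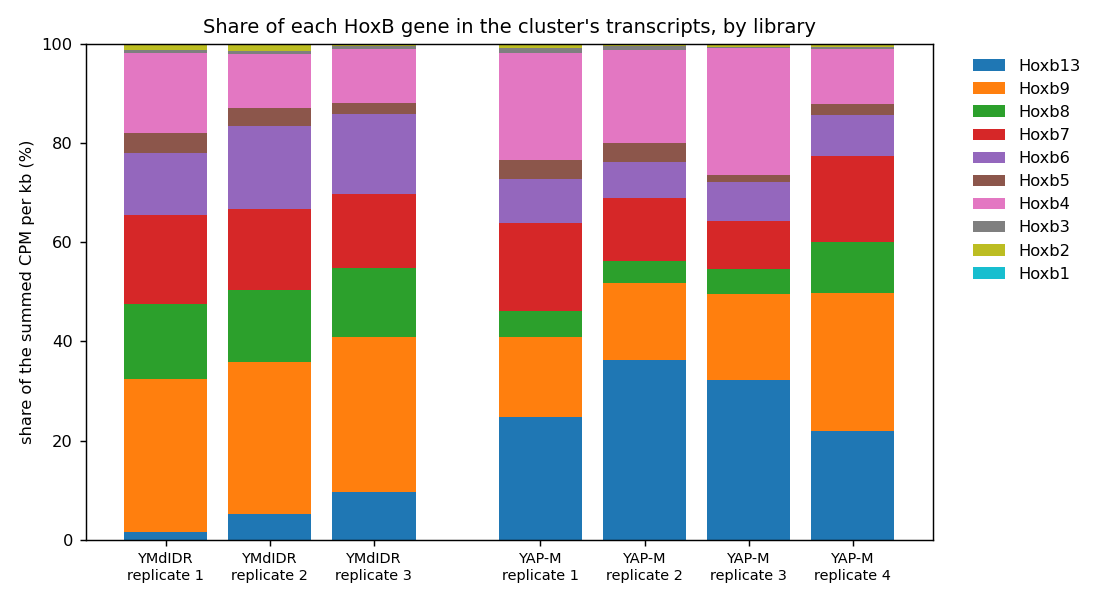
Share of each HoxB gene in the summed CPM per kb of the cluster (%), a stacked bar per library. Hoxb13, the bottom block, takes 1.58 to 9.57% in the YMdIDR bars and 21.9 to 36.3% in the YAP-M bars.

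Of the 9 other entries between the outermost members, 8 had 0 counts in NSC-YAP and SVZ and counts in YMdIDR and YAP-M, and Gm11539 was found in all 4 groups. Gm53, a gene model between Hoxb13 and Hoxb9 (chr11:96251105-96264868), had 15.6, 18.2 and 7.77 CPM in the YMdIDR libraries and 2.58, 3.30, 4.65 and 3.71 CPM in the YAP-M libraries. It rose in YMdIDR over YAP-M with a log2 fold change of 1.96 ± 0.33 (edgeR adjusted p = 0.002148), higher in 3 of 3 libraries than every YAP-M library. Gm11539 averaged 3.77 ± 0.604 CPM in YMdIDR, 1.87 ± 0.273 CPM in YAP-M, 1.22 ± 0.402 CPM in NSC-YAP and 0.468 ± 0.134 CPM in SVZ. Its log2 fold change of 1.01 ± 0.25 (edgeR adjusted p = 0.00763) sits at the fold threshold, and the call was lost in 8 of the 12 fits that left out a library. These 2 entries passed the filter, and the other 7 between the outermost members did not. The Mir196a-1 hairpin, whose mature sequence is given above, had 11, 32 and 7 counts in the YMdIDR libraries and 1, 3, 3 and 7 counts in the YAP-M libraries. Mir10a had 1, 4 and 1 counts in YMdIDR and 2, 4, 1 and 0 counts in YAP-M. These counts are of longer RNA that covers the hairpin and not of mature miRNA, which these libraries were not made to capture. Hoxb5os had 20 counts in YMdIDR and 9 in YAP-M, and Hoxb3os had 27 in YMdIDR and 8 in YAP-M. Gm27605 had 75 counts in YMdIDR and 62 in YAP-M, Gm27898 had 12 in YMdIDR and 15 in YAP-M, and Gm11536 had 4 in each.

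Within 250 kb of the outermost members, 7 of 16 further entries passed the filter. Snf8, of the endosomal sorting machinery, was at 38.0 ± 3.73 CPM in YMdIDR, 36.8 ± 2.86 CPM in YAP-M, 30.98 ± 1.44 CPM in NSC-YAP and 44.2 ± 3.62 CPM in SVZ. Ube2z, a ubiquitin conjugating enzyme, averaged 163 ± 12.9 CPM in YMdIDR, 116 ± 8.52 CPM in YAP-M, 76.5 ± 2.71 CPM in NSC-YAP and 75.2 ± 2.42 CPM in SVZ. It rose over SVZ in YMdIDR, by 1.11 ± 0.09 on the log2 scale (edgeR adjusted p = 9.46e-07), and differed by 0.63 ± 0.09 in YAP-M, under the fold threshold (adjusted p = 4.93e-05). Atp5g1, a subunit of the mitochondrial ATP synthase, averaged 77.5 ± 5.14 CPM in YMdIDR, 46.2 ± 5.43 CPM in YAP-M, 84.2 ± 5.90 CPM in NSC-YAP and 136 ± 12.6 CPM in SVZ. Over SVZ it fell in YAP-M, with -1.56 ± 0.11 (edgeR adjusted p = 2.77e-07), and differed by -0.81 ± 0.12 in YMdIDR, under the fold threshold (adjusted p = 5.91e-05). Calcoco2, an autophagy receptor, had 2 counts in YMdIDR, 399 in YAP-M, 0 in NSC-YAP and 8 in SVZ. Its YAP-M libraries were uneven, at 3.97, 1.59, 9.81 and 0.668 CPM, with 230 of the 399 counts in replicate 3. Skap1, an adaptor of T cell signalling, averaged 2.02 ± 0.953 CPM in YMdIDR, 3.69 ± 1.43 CPM in YAP-M and 1.05 ± 0.362 CPM in SVZ, with 0 counts in NSC-YAP, and rose over SVZ in YAP-M by 1.81 ± 0.43 (edgeR adjusted p = 0.00284). Ttll6, a tubulin modifying enzyme of cilia, averaged 0.291 ± 0.225 CPM in YMdIDR, 0.886 ± 1.10 CPM in YAP-M and 1.56 ± 0.466 CPM in SVZ, with 0 counts in NSC-YAP. Igf2bp1, an RNA binding protein of embryonic tissue at the end of the region beyond Hoxb13, was high in YMdIDR and YAP-M and near 0 in the other groups. It had 59.5, 131 and 169 CPM in the YMdIDR libraries, 45.6, 45.6, 73.3 and 24.8 CPM in the YAP-M libraries, 1 count in NSC-YAP and 8 counts in SVZ. Its log2 fold changes over SVZ were 9.86 ± 0.74 in YMdIDR (edgeR adjusted p = 4.45e-07) and 8.51 ± 0.73 in YAP-M (adjusted p = 1.21e-06). Between YMdIDR and YAP-M it changed by 1.34 ± 0.40 (edgeR adjusted p = 0.0190) with overlapping ranges, and that call was lost without YMdIDR replicate 2 or without YMdIDR replicate 3. The order of the YMdIDR libraries for Igf2bp1, highest in replicate 3, was not the order of the HoxB sum, which was lowest in replicate 3.

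The proteins that bind DNA together with HOX factors are those of the PBX, MEIS and PKNOX families, and 9 of 9 such genes were tested. Over SVZ, 5 of 9 fell in YMdIDR (29.6% of all genes fell) and 4 of 9 in YAP-M (28.9%), with 2 of 9 in YAP-M without YAP-M replicate 1. Pknox2, of the PKNOX family, averaged 4.25 ± 1.77 CPM in YMdIDR, 6.08 ± 1.84 CPM in YAP-M, 35.4 ± 0.0188 CPM in NSC-YAP and 35.6 ± 0.538 CPM in SVZ. Its log2 fold changes over SVZ were -3.06 ± 0.32 in YMdIDR (edgeR adjusted p = 4.60e-06) and -2.55 ± 0.28 in YAP-M (adjusted p = 7.22e-06). Of YMdIDR over YAP-M, where 6.78% of all genes rose and 9.61% fell, 1 of the 9 rose and 0 fell with edgeR. The 1 that rose was Meis3, with a log2 fold change of 1.01 ± 0.17 at the fold threshold, and its call was lost in 7 of the 12 fits that left out a library and with DESeq2. In the lower direction 2 had an unadjusted p under 0.05, 1 was called with DESeq2 and up to 2 were called when a library was left out.

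Of 10 genes known to act upstream of Hox clusters in the embryo, 6 were tested. The CDX factors, which switch on posterior HOX genes in the tail bud, were at or near 0 in these libraries and are named here after their values were seen. Cdx2 had 0 counts in YMdIDR, NSC-YAP and SVZ, and in YAP-M it was at 0.147, 0, 1.24 and 0 CPM in replicates 1 to 4. Cdx4 had 0 counts in YMdIDR, 1 count in YAP-M and 0 in NSC-YAP and SVZ, and Cdx1 had 15 counts in YMdIDR, 30 in YAP-M, 0 in NSC-YAP and 7 in SVZ. Gdf11, a signal that sets the trunk to tail transition, averaged 37.4 ± 2.01 CPM in YMdIDR, 15.6 ± 1.90 CPM in YAP-M, 49.6 ± 0.486 CPM in NSC-YAP and 46.1 ± 0.439 CPM in SVZ. It was the 1 gene of this list that rose in YMdIDR over YAP-M, by 1.26 ± 0.10 (edgeR adjusted p = 2.53e-05).

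Retinoic acid opens the anterior genes of HOX clusters, and 17 of 18 genes of its pathway were tested. Of YMdIDR over YAP-M, 4 rose and 7 fell, where 6.78% of all genes rose and 9.61% fell, and without YMdIDR replicate 2 the count that rose was 2. Crabp1, which binds retinoic acid in the cytoplasm, had 6.45, 13.4 and 6.27 CPM in the YMdIDR libraries and 0.221, 0.296, 0.384 and 0.594 CPM in the YAP-M libraries, a log2 fold change of 4.53 ± 0.37 (edgeR adjusted p = 2.80e-05). Rara, a retinoic acid receptor, averaged 35.4 ± 5.86 CPM in YMdIDR and 15.5 ± 3.40 CPM in YAP-M and rose by 1.19 ± 0.17 (adjusted p = 3.71e-04). Cyp26a1, which breaks retinoic acid down, averaged 0.456 ± 0.187 CPM in YMdIDR and 3.43 ± 0.418 CPM in YAP-M and fell, with a change of -2.90 ± 0.42 (adjusted p = 5.10e-04). Rdh10, which makes the precursor of retinoic acid, averaged 19.9 ± 7.79 CPM in YMdIDR and 55.1 ± 8.37 CPM in YAP-M and also fell, with -1.47 ± 0.23 (adjusted p = 5.80e-04). Over SVZ, 7 rose and 4 fell in YMdIDR, where 26.9% of all genes rose and 29.6% fell. In YAP-M over SVZ 8 rose and 3 fell, where 25.8% rose and 28.9% fell. Among those that fell was Rarb, a receptor gene that retinoic acid itself induces. It changed by -5.59 ± 0.39 in YMdIDR and by -3.31 ± 0.30 in YAP-M on the log2 scale (edgeR adjusted p = 2.77e-07 in YMdIDR and 1.73e-06 in YAP-M). Others lay higher than in SVZ in both groups and are named here after their values were seen. Rarg, also a receptor, averaged 59.9 ± 4.97 CPM in YMdIDR, 29.1 ± 9.45 CPM in YAP-M and 10.4 ± 0.286 CPM in SVZ. Crabp2 averaged 6.50 ± 1.96 CPM in YMdIDR, 6.98 ± 1.86 CPM in YAP-M and 1.10 ± 0.424 CPM in SVZ.

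Polycomb proteins keep HOX clusters silent, and 14 of 14 of their genes on the list were tested. Over SVZ, 3 of 14 rose and 4 fell in YMdIDR, and 4 rose and 3 fell in YAP-M, where 26.9% of all genes rose and 29.6% fell in YMdIDR, and 25.8% rose and 28.9% fell in YAP-M. Of YMdIDR over YAP-M, where 6.78% of all genes rose and 9.61% fell, 1 of 14 rose, Cbx2, a reader of the repressive histone mark, and 0 fell with edgeR (5 at an unadjusted p under 0.05 and 1 with DESeq2). It had 17.0, 23.9 and 27.8 CPM in the YMdIDR libraries, 3.75, 4.22, 3.71 and 5.90 CPM in the YAP-M libraries, 20.5 ± 1.22 CPM in NSC-YAP and 4.62 ± 0.394 CPM in SVZ. Its log2 fold change of YMdIDR over YAP-M was 2.38 ± 0.20 (edgeR adjusted p = 2.81e-05). Ezh2, the enzyme that writes the mark, averaged 55.5 ± 11.4 CPM in YMdIDR, 49.9 ± 7.37 CPM in YAP-M and 14.4 ± 1.80 CPM in SVZ, and rose over SVZ by 1.95 ± 0.18 in YMdIDR and 1.80 ± 0.17 in YAP-M on the log2 scale (edgeR adjusted p = 1.67e-06 in YMdIDR and 2.40e-06 in YAP-M). Among 9 trithorax genes and demethylases of the mark, 1 rose and 1 fell in YMdIDR over YAP-M, against the same 6.78% and 9.61% of all genes. These were Men1, by 1.02 ± 0.09, and Kdm6a, by -1.07 ± 0.26, both at the fold threshold, and the call was lost for Men1 in 8 and for Kdm6a in 4 of the 12 fits that left out a library. With DESeq2, 0 of the 9 were called higher and 1 lower.

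Genes of forebrain identity, 12 of 12 tested, were set beside the members because the forebrain normally lacks HoxB. Of these, 2 rose and 8 fell over SVZ in YMdIDR, 1 rising without YMdIDR replicate 2, without YMdIDR replicate 3 or without SVZ replicate 1, and 1 rose and 6 fell in YAP-M. Of all genes, 26.9% rose and 29.6% fell in YMdIDR, and 25.8% rose and 28.9% fell in YAP-M. The median log2 fold change of the list over SVZ was -2.17 in YMdIDR and -1.41 in YAP-M, against -0.01 and -0.04 over all tested genes in the same comparisons. Tbr1, a factor of cortical projection neurons, averaged 2.61 ± 1.80 CPM in YMdIDR, 2.75 ± 1.04 CPM in YAP-M, 0.550 ± 0.318 CPM in NSC-YAP and 33.9 ± 2.86 CPM in SVZ. Its log2 fold change over SVZ was -3.70 ± 0.54 in YMdIDR and -3.62 ± 0.47 in YAP-M (edgeR adjusted p = 6.67e-05 in YMdIDR and 3.15e-05 in YAP-M). Dlx1, a factor of forebrain interneurons, fell with -3.60 ± 0.60 in YMdIDR, which was -4.62 without YMdIDR replicate 3, and -3.77 ± 0.54 in YAP-M (edgeR adjusted p = 1.94e-04 in YMdIDR and 6.05e-05 in YAP-M). Emx2, a factor of the dorsal forebrain, averaged 32.7 ± 9.47 CPM in YMdIDR, 24.5 ± 4.52 CPM in YAP-M, 7.68 ± 0.251 CPM in NSC-YAP and 9.74 ± 1.32 CPM in SVZ, and rose over SVZ by 1.75 ± 0.22 in YMdIDR and 1.33 ± 0.21 in YAP-M on the log2 scale (edgeR adjusted p = 2.49e-05 in YMdIDR and 1.33e-04 in YAP-M).

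Markers of other cell types also differed between the groups. The 7 macrophage markers, each above the floor of its group in YMdIDR, YAP-M and SVZ, summed to 872 to 1079 CPM in YMdIDR, 782 to 1023 CPM in YAP-M, 39.4 to 40.4 CPM in NSC-YAP and 245 to 331 CPM in SVZ. Over SVZ, 6 of the 7 rose in YMdIDR, where 26.9% of all genes rose, and 6 in YAP-M, where 25.8% rose. Ptprc, the common white blood cell marker, averaged 50.4 CPM in YMdIDR, 54.0 CPM in YAP-M and 4.32 CPM in SVZ, with 1 count in NSC-YAP. The 8 fibroblast markers summed to 464 to 1641 CPM in YMdIDR, 481 to 1550 CPM in YAP-M, 51.2 to 53.5 CPM in NSC-YAP and 222 to 265 CPM in SVZ. The 6 endothelial markers summed to 158 to 221 CPM in YMdIDR, 244 to 357 CPM in YAP-M and 22.2 to 23.1 CPM in NSC-YAP. In macrophage, fibroblast and endothelial markers the YMdIDR libraries, whose labels conflict, were thus closer to the YAP-M tumours than to the NSC-YAP cells. Between YMdIDR and YAP-M, 0 of the 7 macrophage markers were called by edgeR (2 at an unadjusted p under 0.05, 0 with DESeq2). Other marker lists differed between YMdIDR and YAP-M, where 6.78% of all genes rose and 9.61% fell. Endothelial markers fell in 3 of 6 and astrocyte markers in 3 of 5. Of 8 neural stem cell markers 1 rose and 3 fell, and of 7 neuronal markers 2 rose and 2 fell. Of 5 tested blood progenitor markers 2 rose and 1 fell, and 1 of 8 fibroblast markers fell. By edgeR 0 of 8 oligodendrocyte markers (3 lower with DESeq2) and 0 of 5 ependymal markers were called. The 7 blood progenitor markers, 5 of them above the floor in YMdIDR and 6 in YAP-M, summed to 102 to 121 CPM in YMdIDR, 89.2 to 128 CPM in YAP-M, 68.3 to 70.8 CPM in NSC-YAP and 55.1 to 60.0 CPM in SVZ. Of the 5 tested, 2 rose and 2 fell over SVZ in YMdIDR, and 3 rose and 2 fell in YAP-M. Tal1 and Cd34 rose in both, Cd34 by 1.34 ± 0.18 in YMdIDR and 1.57 ± 0.18 in YAP-M on the log2 scale (edgeR adjusted p = 4.37e-05 in YMdIDR and 1.04e-05 in YAP-M). Kit and Myb fell in both, Kit with -2.83 ± 0.20 in YMdIDR and -1.86 ± 0.17 in YAP-M (edgeR adjusted p = 2.88e-07 in YMdIDR and 2.31e-06 in YAP-M). No gene of the macrophage, fibroblast and blood progenitor lists was at 0 in YMdIDR or YAP-M. The part of these cells in the HoxB levels was not tested.

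The other Hox clusters did not share one pattern over the 4 groups. HoxA genes summed to 22.9 ± 16.8 CPM in YMdIDR, 36.9 ± 5.47 CPM in YAP-M, 60.9 ± 2.47 CPM in NSC-YAP and 0.138 ± 0.0750 CPM in SVZ, and HoxD genes to 18.3 ± 17.2 CPM in YMdIDR, 106 ± 30.7 CPM in YAP-M, 0.285 CPM in NSC-YAP and 0.352 ± 0.241 CPM in SVZ. HoxC genes, at 16.7 ± 4.59 CPM in YMdIDR, 8.44 ± 1.67 CPM in YAP-M, 0 counts in NSC-YAP and 2 counts in SVZ, came closest to HoxB.

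**Figure D5:**
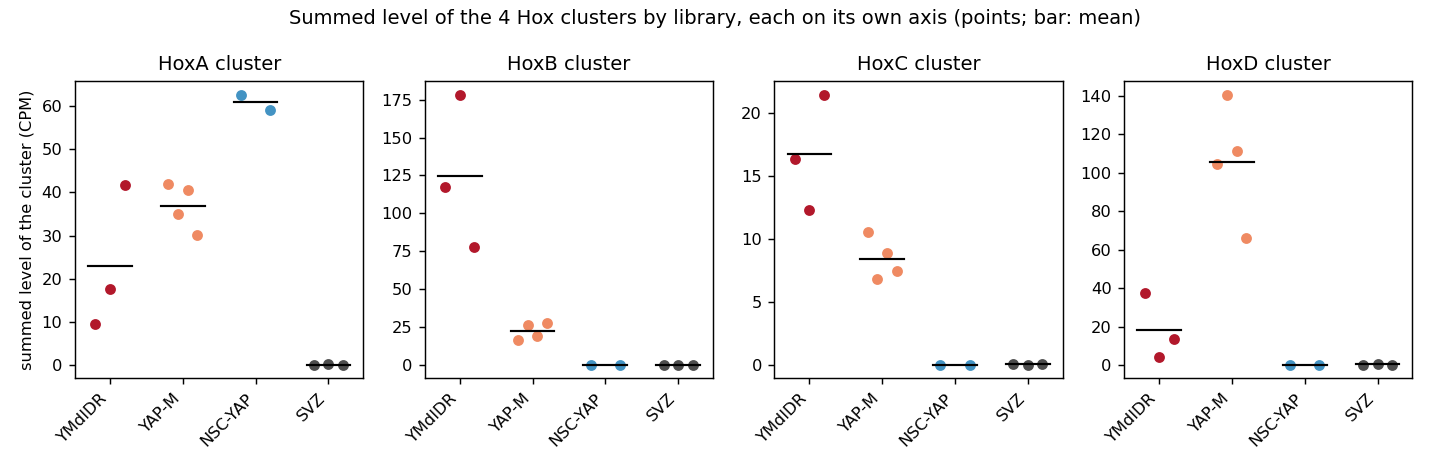
Summed level (CPM) of the genes of each Hox cluster by library, with the group mean as a bar and an axis of its own for each cluster. HoxB is highest in the 3 YMdIDR libraries (77.9 to 178 CPM), HoxD in the 4 YAP-M libraries and HoxA in the 2 NSC-YAP libraries, while SVZ lies at or near 0 in every panel.

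Genes whose pattern over the 12 libraries was most like the HoxB sum were found by the root mean square difference between centred log2(CPM + 1) values in units of their SD. The closest named genes were Zbp1 (0.0987), Fgr (0.112), Snx20 (0.120), Ccl12 (0.122), Ifi44l (0.122), Prelid2 (0.130), Tal1 (0.131) and Ifi27l2a (0.137), where the median over all tested genes was 1.45. Ifi44l and Ifi27l2a are induced by interferon, Fgr is a kinase of myeloid cells and Ccl12 a chemokine. Zbp1, a sensor of nucleic acids, averaged 24.7 ± 5.91 CPM in YMdIDR, 9.26 ± 1.61 CPM in YAP-M, 0 in NSC-YAP and 0.216 ± 0.0900 CPM in SVZ. Tal1, a blood cell factor that is also among the blood progenitor markers, averaged 37.6 ± 5.18 CPM in YMdIDR, 17.8 ± 4.56 CPM in YAP-M, 2.85 ± 0.170 CPM in NSC-YAP and 2.22 ± 0.156 CPM in SVZ. Among Hox genes of other clusters Hoxc13 (0.175) and Hoxc9 (0.341) were the closest. The measure describes these 12 libraries, and the genes were picked for the likeness.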

How the data were processed

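Per the labels' protocols, total RNA from TRIzol and RNeasy columns went into TruSeq RNA libraries. Per the submitters' processing notes the reads were aligned with TopHat2 to mm10, and the authors deposited a table of raw read counts per gene for each library. No source used here names the counting program, its annotation or its use of strand. The HoxB members and all gene lists were chosen with earlier results of these data known.

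The 12 count tables held the same 53090 entries, and 453 entries that share a symbol were summed, which left 52850 symbols. One NSC-YAP table has a header that differs from its title, and was assigned by the sample record. Counts were tested with edgeR 4.0.16 (TMM, quasi-likelihood, 1 coefficient per group, all libraries in 1 fit) on the 18329 genes that reached 1 CPM in 2 or more libraries, with Benjamini-Hochberg adjustment over them. All members, all entries between them, the flanking entries that were tested, 8 genes by likeness and, per other list and comparison, up to 4 genes with the smallest adjusted p are named, with exceptions stated. Alternatives were no filter, 5 CPM, median-ratio scaling, DESeq2 1.42.0, adjusted p alone, the compared groups alone, a replicate block and leaving out each library. The steps were tested on simulated data. Depth is given in the text, and intervals cover counting error only. Chromatin samples are not used here. Replicate numbers recur across groups, but of 15 same-numbered pairs 4 had deviations that correlated above 0.1, so the numbers were not taken to pair the libraries. Between YMdIDR and YAP-M the correlation was 0.001 for replicate 1, 0.386, the highest of all, for replicate 2 and 0.124 for replicate 3. Pairs with different numbers were not compared. Results for some listed genes are not reported here.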

Additional observations from a re-analysis of the deposited data

Results flagged for a closer look

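Within a group of 4 libraries, a value was listed when its gap to the nearest of the others, divided by the range of the group, passed Dixon's 95% critical value, which chance alone passes in about 1 of 20 groups. In the YAP-M group, 19 HoxB members and neighbours were examined and 2 values were listed. Hoxb8 stood at 3.228 CPM in YAP-M replicate 4, with a gap of 0.864 of the range, and the other 3 libraries were between 0.993 and 1.30 CPM. Hoxb1 stood at 0.03705 CPM in YAP-M replicate 2, which is 1 count against 0 in the other 3 libraries. With the other 3 at 0 any single count is listed by construction, so nothing is read from this value.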

How the results depend on the processing

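The count of HoxB members called stayed within 1.5 times of its main value under all alternatives run, between 6 and 8 for YMdIDR over YAP-M, 7 and 9 for YMdIDR over SVZ, and 6 and 9 for YAP-M over SVZ. It was 0 throughout for NSC-YAP over SVZ, where both groups held too few counts for any member to be called. Hoxb13 was the 1 member whose sign turned, to 0.37 without YMdIDR replicate 1 and 0.14 without YAP-M replicate 2, in YMdIDR over YAP-M, where leaving out a library gave -0.51 to 0.37. Over all genes, calling on the adjusted p alone, without the fold threshold, gave 4199 higher and 3768 lower in YMdIDR over YAP-M (1242 and 1761 with it), 5508 higher in NSC-YAP over SVZ (3199), 5792 lower in YMdIDR over NSC-YAP (3744) and 6326 lower in YAP-M over NSC-YAP (3951), and a minimum of 5 CPM gave 819 higher in YMdIDR over YAP-M, with fewer genes tested. With a replicate block YMdIDR over YAP-M gave 1297 higher and 1628 lower, and 8 members. The block ended the call of Hoxb2 in YAP-M over SVZ and over NSC-YAP and no other call of a member. Counts of the other lists moved by over 1.5 times in 247 refits and by less in 2489. Median-ratio scaling moved the median of all genes by at most 0.09. Hoxb1, and Hoxb2 and Hoxb3 in YAP-M, are limited by their few counts.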
